A study of Homo sapiens with 8 samples.

Results

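NGFR, SORT1, MAGED1, SCG2, SCG5, CHGA and VGF are the 7 genes described here, out of 58735 in the table of expression values that the authors deposited. NGFR codes for p75NTR, a receptor for the neurotrophins, and SORT1 and MAGED1 code for proteins that bind it. SCG2, SCG5, CHGA and VGF code for granins or granin-associated proteins of the regulated secretory pathway. The set was chosen by the measured FPKM of these same libraries, in which NGFR was very low with both MAPKAPK2 shRNAs and SCG2 high with shRNA 1, and the genes were then taken from the table by name. The levels of the 7 genes in the MAPKAPK2 shRNA groups are therefore given as a description, with no test against the control.

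All RNA came from HCT116, a human colorectal cancer cell line in long use, and the 8 libraries form 4 groups of 2. The groups were cells with MAPKAPK2 shRNA 1 at 20 mM glucose, cells with MAPKAPK2 shRNA 2 at 20 mM glucose, cells with a control shRNA at 0 mM glucose for 24 h, and cells with the control shRNA at 20 mM glucose for 24 h. An shRNA is a short hairpin RNA that lowers the mRNA it matches, and MAPKAPK2 codes for MK2, a kinase downstream of p38 in stress signalling. The time at 20 mM glucose of the MAPKAPK2 shRNA cells, the vector, whether each line is 1 clone, and whether replicates were separate cultures are not given in the sources used here. For that reason p-values below measure only the spread between these libraries, which may be technical.

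p75NTR has no kinase of its own. It signals through adaptor proteins that bind its cytoplasmic part, and with sortilin as co-receptor it binds the uncleaved precursors of the neurotrophins. Granins are acidic proteins that gather in dense-core granules, the stores from which endocrine cells and neurons release peptides on demand, and prohormone convertases cut several of them into active peptides. In the gut, CHGA is best known as a marker of enteroendocrine cells.

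Each library had between 14252316 and 19975449 reads assigned to genes. Between 13821 and 14611 genes reached 1 FPKM (fragments scaled by exon length and by library size). MAPKAPK2 itself was at 2.77 and 2.54 FPKM with shRNA 1 and 0.982 and 0.8 FPKM with shRNA 2, against 17.9 and 18.9 FPKM at 0 mM and 16.4 and 16.2 FPKM in the 20 mM control. That is 16.3% of the control mean with shRNA 1 and 5.46% with shRNA 2 (limma adjusted p = 2.01e-04 and 5.26e-05). Of 10 markers of colon epithelium, KRT8, KRT18, KRT19, EPCAM, CDH1 and CDX2 were expressed in every library, whereas CDX1 had 0 reads and VIL1, CDH17 and GPA33 stayed at or under 0.166 FPKM. Of 27 neuroendocrine and neuronal markers, 11 had 0 reads in all 8 libraries, among them INSM1, NEUROG3 and RFX6, and 23 were under 1 FPKM throughout, with NEUROD1 at or under 0.0592 FPKM and SYP at or under 0.388 FPKM. The name "neural-type" thus stands for where these genes are best known, and most defining markers of such cells were at or near 0 here. In bulk RNA, fewer cells that express a gene and less of its RNA per cell cannot be told apart.

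The 7 genes lie on 7 chromosomes (GENCODE 29, GRCh38). NGFR spans chr17:49495293-49515017 on the plus strand and SORT1 chr1:109309568-109397951 on the minus strand. MAGED1 spans chrX:51803007-51902357 on the plus strand. SCG2 spans chr2:223596940-223602503 on the minus strand, SCG5 chr15:32641676-32697098 on the plus strand, CHGA chr14:92923080-92935293 on the plus strand and VGF chr7:101162509-101165593 on the minus strand.

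NGFR was the only one of the 7 whose exons overlapped those of other genes by more than a few bases. Of its 4150 exon bases, 1126 (27.1%) also lie in exons of 2 genes on the opposite strand. AC015656.1, an unconfirmed transcript in the annotation, covers 924 of them (22.3%). AC006487.1, an antisense gene, covers 202 (4.9%), all of them coding bases of exon 3. Strand was not known to have been kept, so reads from these stretches could belong to either gene of each pair. The coding stretch in exon 3 is shown because it is a part of the receptor's message to which such reads map, on the plus strand of GRCh38 as GENCODE 29 gives transcript NGFR-201, at chr17:49506299-49506500.
NGFR exon 3 under AC006487.1: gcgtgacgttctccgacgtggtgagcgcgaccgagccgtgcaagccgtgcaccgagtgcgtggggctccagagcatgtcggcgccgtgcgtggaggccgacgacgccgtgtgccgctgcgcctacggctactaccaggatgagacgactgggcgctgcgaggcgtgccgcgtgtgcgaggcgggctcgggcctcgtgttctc
The counts given to these antisense genes were small. AC015656.1 had 0 reads in all 4 MAPKAPK2 shRNA libraries, 5 and 5 at 0 mM, and 2 and 0 in the 20 mM control. AC006487.1 had 0 and 3 reads with shRNA 1, 0 and 0 with shRNA 2, 19 and 3 at 0 mM, and 3 and 10 in the 20 mM control. NGFR was given 701 to 1342 reads in the control shRNA libraries. Of the other genes, SCG5 shares 11 bases (0.5% of its exon bases) with AC123768.1, and SORT1, MAGED1, SCG2, CHGA and VGF share none.

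NGFR was nearly lost from the cells with either MAPKAPK2 shRNA. It was at 0.525 and 0.52 FPKM with shRNA 1, at 0.331 and 0.524 FPKM with shRNA 2, at 15.6 and 15.5 FPKM in control cells at 0 mM glucose and at 11.4 and 9.49 FPKM in control cells at 20 mM. Every MAPKAPK2 shRNA library was thus far under every control shRNA library, and the shRNA 1 and shRNA 2 libraries overlapped each other. The mean was 0.522 ± 0.00333 FPKM with shRNA 1 and 0.427 ± 0.137 FPKM with shRNA 2, against 10.4 ± 1.34 FPKM in the 20 mM control (SD, n = 2 each), which is 5.01% and 4.1% of the control. The values with shRNA rest on few reads, 41 and 33 with shRNA 1 and 26 and 35 with shRNA 2, against 790 and 701 in the 20 mM control. Pooling both libraries of a group, the exact 95% Poisson interval was 0.41 to 0.656 FPKM with shRNA 1 and 0.321 to 0.539 FPKM with shRNA 2, against 9.88 to 10.9 FPKM in the 20 mM control. These intervals cover counting error only. On the log2(FPKM + 1) scale, which understates the change of a gene at so low a level, the differences from the 20 mM control were -2.90 with shRNA 1 and -3.00 with shRNA 2. NGFR passed the level filter of the tests (at least 1 FPKM in at least 2 libraries) only through the control shRNA libraries.

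SORT1, the gene of sortilin, the co-receptor of p75NTR for neurotrophin precursors and a sorting receptor of the Golgi, was low with shRNA 1 and not with shRNA 2. It was at 3.15 and 3.54 FPKM with shRNA 1, 5.67 and 5.67 FPKM with shRNA 2, 4.9 and 4.95 FPKM at 0 mM and 5.38 and 4.85 FPKM in the 20 mM control. The shRNA 1 libraries were the lowest of the 8 and the shRNA 2 libraries the highest, while the control libraries at 0 mM and 20 mM overlapped. The means with shRNA 1 and shRNA 2 were 65.4% and 111% of the 20 mM control.

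MAGED1 codes for a MAGE family protein, also called NRAGE, that binds the cytoplasmic part of p75NTR. It showed the other order. Its level was 17.2 and 17.1 FPKM with shRNA 1, 11.7 and 10.9 FPKM with shRNA 2, 17.7 and 20.3 FPKM at 0 mM and 19.4 and 19.6 FPKM in the 20 mM control. The shRNA 2 libraries stood apart at 58.2% of the 20 mM control, and the shRNA 1 libraries, at 88.0%, lay between them and the controls.

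SCG2, the gene of secretogranin II, from which the peptide secretoneurin is cut, was far higher with shRNA 1 than in the other 3 groups. It was at 60.1 and 56.6 FPKM with shRNA 1, 10.3 and 8.04 FPKM with shRNA 2, 11.7 and 12.1 FPKM at 0 mM and 8.03 and 8.91 FPKM in the 20 mM control. The shRNA 1 mean of 58.4 ± 2.47 FPKM was 6.89 times the 20 mM control mean of 8.47 ± 0.622 FPKM, and the shRNA 2 mean of 9.19 ± 1.62 FPKM was 1.09 times it (SD, n = 2 each). The shRNA 2 and 20 mM control libraries overlapped. SCG2 had 3077 and 2354 reads with shRNA 1, so the counting error there is small. Its place in the order of levels differed with shRNA 1 as well. With shRNA 1, SCG2 had the highest level of the 7, and NGFR lay under SCG5 (0.682 ± 0.164 FPKM), by a margin that is within the spread of the SCG5 libraries. In the 20 mM control the 7 genes ran from VGF (mean 20.6 FPKM) and MAGED1 (19.5 FPKM) over NGFR (10.4 FPKM), SCG2 (8.47 FPKM) and SORT1 (5.11 FPKM) to SCG5 (0.775 FPKM) and CHGA (0.147 FPKM). The libraries of VGF and MAGED1 there were at 21.6 and 19.7 FPKM and at 19.4 and 19.6 FPKM, and those of NGFR and SCG2 at 11.4 and 9.49 FPKM and at 8.03 and 8.91 FPKM.

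**Figure D1:**
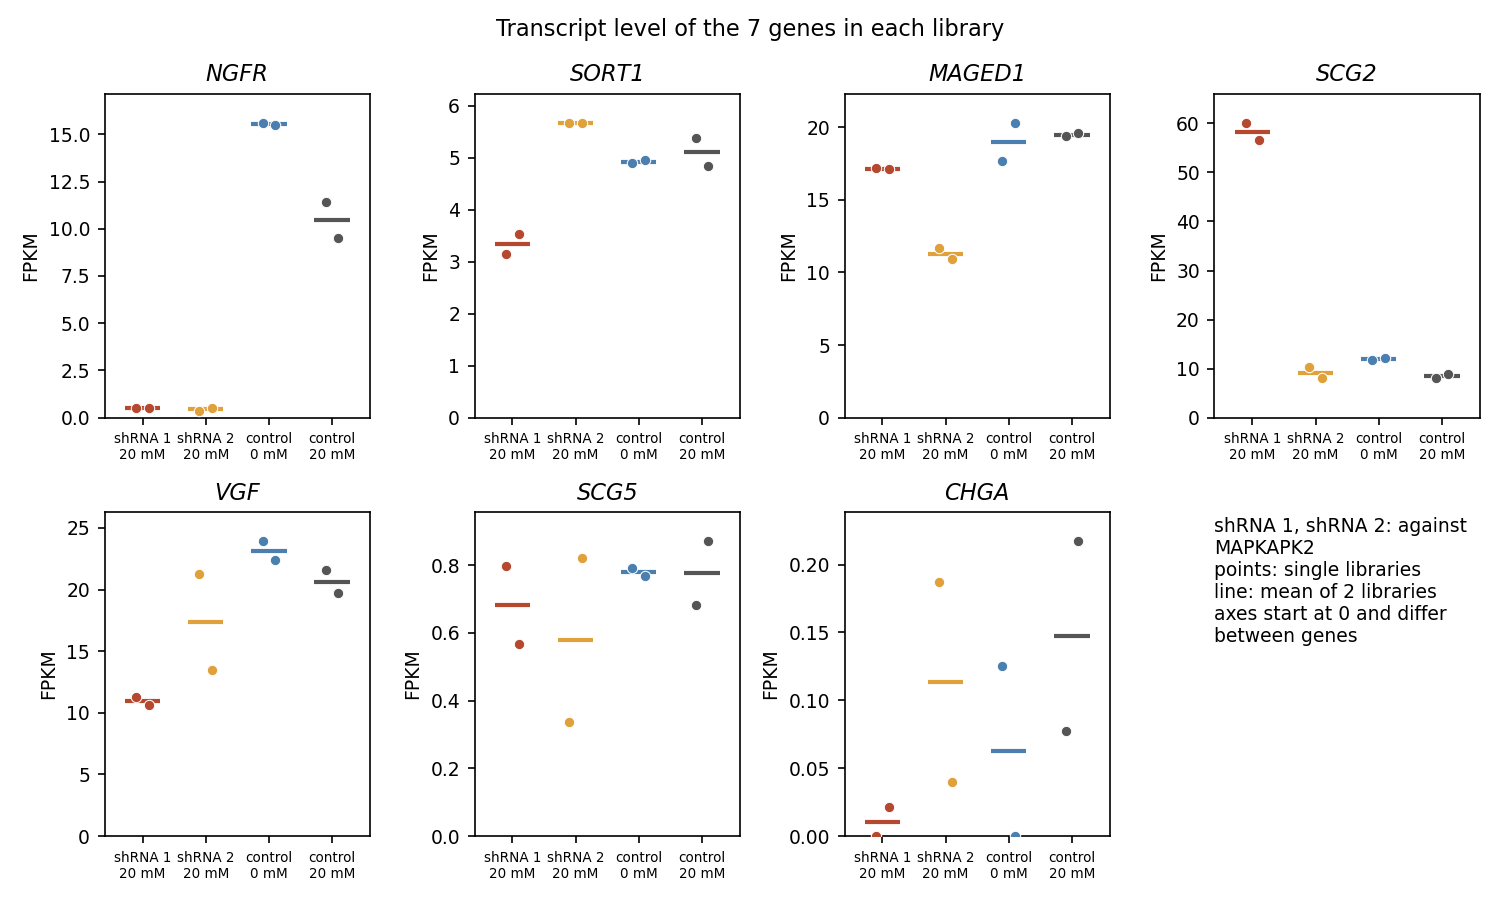
FPKM of the 7 genes (y axes, each starting at 0) in each library, by group from left to right; points are libraries and lines are means of 2 libraries. NGFR is at 0.331 to 0.525 FPKM in the 4 MAPKAPK2 shRNA libraries and at 9.49 to 15.6 FPKM in the 4 control shRNA libraries, SCG2 is at 60.1 and 56.6 FPKM with shRNA 1 and at 8.03 to 12.1 FPKM elsewhere, the groups overlap for SCG5, and for CHGA the shRNA 1 libraries are at 0 and 0.0211 FPKM.

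VGF codes for a granin whose peptides act in the brain on feeding and energy balance. It was at 11.3 and 10.6 FPKM with shRNA 1, 21.3 and 13.5 FPKM with shRNA 2, 23.9 and 22.4 FPKM at 0 mM and 21.6 and 19.7 FPKM in the 20 mM control. The shRNA 1 libraries were the lowest of the 8, at 53.2% of the 20 mM control mean. The shRNA 2 libraries were far apart from each other, 1 within the range of the 20 mM control and the other near the shRNA 1 libraries, so that the group mean of 17.4 ± 5.47 FPKM (SD, n = 2) describes neither.

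SCG5, the gene of a small protein that serves as chaperone of the convertase PCSK2, was near the limit of what these libraries could measure. It was at 0.798 and 0.566 FPKM with shRNA 1, 0.337 and 0.82 FPKM with shRNA 2, 0.792 and 0.768 FPKM at 0 mM and 0.681 and 0.87 FPKM in the 20 mM control, from 14 to 36 reads a library. All groups overlapped. CHGA, the gene of chromogranin A, was at 0 and 0.0211 FPKM with shRNA 1, 0.187 and 0.0401 FPKM with shRNA 2, 0.125 and 0 FPKM at 0 mM and 0.0771 and 0.217 FPKM in the 20 mM control. These values come from 0 to 12 reads, and 0 reads allowed up to 0.0514 FPKM in the shRNA 1 library and 0.0627 FPKM in the 0 mM library (3 reads). The shRNA 1 libraries of CHGA lay under those of shRNA 2 and of the 20 mM control, and the other pairs of groups overlapped. Pooling both libraries of a group, CHGA had 1 read with shRNA 1 (exact 95% Poisson interval 0.000239 to 0.0526 FPKM). It had 13 with shRNA 2 (0.0637 to 0.205 FPKM), 8 at 0 mM (0.0308 to 0.141 FPKM) and 16 in the 20 mM control (0.0854 to 0.243 FPKM). The shRNA 1 interval overlaps that at 0 mM but not those of shRNA 2 and the 20 mM control, for counting error only. The intervals leave out the spread between libraries, such as 11 and 2 reads with shRNA 2, 8 and 0 at 0 mM and 4 and 12 in the 20 mM control. For SCG5 no difference between groups was detectable at this depth. Neither gene entered the tests.

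VGF and CHGA share a feature of their promoters that the choice of genes did not use. Of the 7 genes, 5 have an entry in a RefSeq table of promoters (GRCh38.p14, 250 bases before to 50 after each start), and NGFR and SCG2 have none there. TGACGTCA, the full cAMP response element, was searched on both strands. It reads the same on both, and no other motif was searched for, so overlap with another motif was not examined. It was found 79 bases before the RefSeq start of VGF and 54 before that of CHGA, and not in the windows of SORT1, MAGED1 or SCG5. Of all 35116 promoters in the table, 649 (1.85%) hold it. The 30 bases around the match are shown from VGF at chr7:101165630-101165659 on the minus strand and from CHGA at chr14:92923085-92923114 on the plus strand, with the motif in capitals; the CHGA match lies after the gene start that GENCODE 29 gives.
VGF: tgaatgaacatTGACGTCAatggggcgggg
CHGA: ggcggcaccgcTGACGTCAtttccggggtc
The levels given above for these genes differ widely, with VGF at 10.6 to 23.9 FPKM and CHGA at 0 to 0.217 FPKM over the 8 libraries.

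The test for all genes was a limma model of log2(FPKM + 1) over 16239 genes that passed the level filter, with Benjamini-Hochberg adjustment and a threshold of 0.05. NGFR, SORT1, MAGED1, SCG2 and VGF were among them. For scale, 19.8% of all genes tested passed with shRNA 1 against the 20 mM control (9.35% higher, 10.5% lower) and 18.8% with shRNA 2 (11.1% higher, 7.73% lower). With both shRNAs in the same direction 7.08% passed, of which those lower with both were 3.03% of all genes tested. The libraries did not overlap between the groups in 65.7% of genes with shRNA 1 (31.7% higher, 34.0% lower) and in 57.4% with shRNA 2 (29.9% higher, 27.5% lower). All 5 tested genes did not overlap between shRNA 1 and the 20 mM control. Between shRNA 2 and the 20 mM control NGFR, SORT1 and MAGED1 did not overlap. These are the contrasts on which NGFR and SCG2 were chosen, so nothing is read from these counts.

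The shRNA 2 cells differed from the shRNA 1 cells in SORT1 and MAGED1, in opposite directions. Between the 2 MAPKAPK2 shRNAs 22.2% of all genes tested passed (13.0% higher and 9.13% lower with shRNA 2), and 60.0% did not overlap. NGFR and SCG2 were not tested in this contrast, which uses the same shRNA libraries as their choice did. Their differences were -0.10 and -2.55 on the log2(FPKM + 1) scale. SORT1, MAGED1 and VGF belong to the set chosen with results of these libraries known, so their p-values are not independent of that choice. Of the 3 tested genes, SORT1 was higher with shRNA 2 by 0.62 (SE 0.097, limma adjusted p = 0.00633). MAGED1 was lower with shRNA 2, with a difference of -0.56 (SE 0.094, limma adjusted p = 0.00806). VGF had a difference of 0.59 that did not pass (SE 0.19, limma adjusted p = 0.0657). The SORT1 call was lost without shRNA 1 replicate 1 (0.55, adjusted p = 0.0516), and the MAGED1 call without shRNA 1 replicate 1 or 2 (adjusted p = 0.0567 and 0.0555). VGF passed without shRNA 2 replicate 2 (0.90, adjusted p = 0.00422) and in limma's voom fit on reads recovered from the FPKM (0.64, adjusted p = 0.0179).

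Glucose withdrawal gave no call in any of the 5 tested genes, nor in any other of the 16239 genes (0%), with 1421 genes at an unadjusted p under 0.05. The voom fit called 28 genes (0.172%), none of them among the 5. NGFR was at 15.6 and 15.5 FPKM at 0 mM, against 11.4 and 9.49 FPKM at 20 mM, a mean of 149% of the 20 mM level. The difference was 0.54 on the log2(FPKM + 1) scale (SE 0.12, limma adjusted p = 0.352) and 0.59 in the voom fit (adjusted p = 0.152). SCG2 was at 11.7 and 12.1 FPKM at 0 mM, against 8.03 and 8.91 FPKM at 20 mM, with a difference of 0.45 (SE 0.12, limma adjusted p = 0.419). VGF had a difference of 0.16 (adjusted p = 0.878), SORT1 of -0.04 (adjusted p = 0.947) and MAGED1 of -0.03 (adjusted p = 0.957). The libraries of NGFR, SCG2 and VGF at 0 mM were all above those at 20 mM, as were those of 19.1% of all genes tested.

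**Figure D2:**
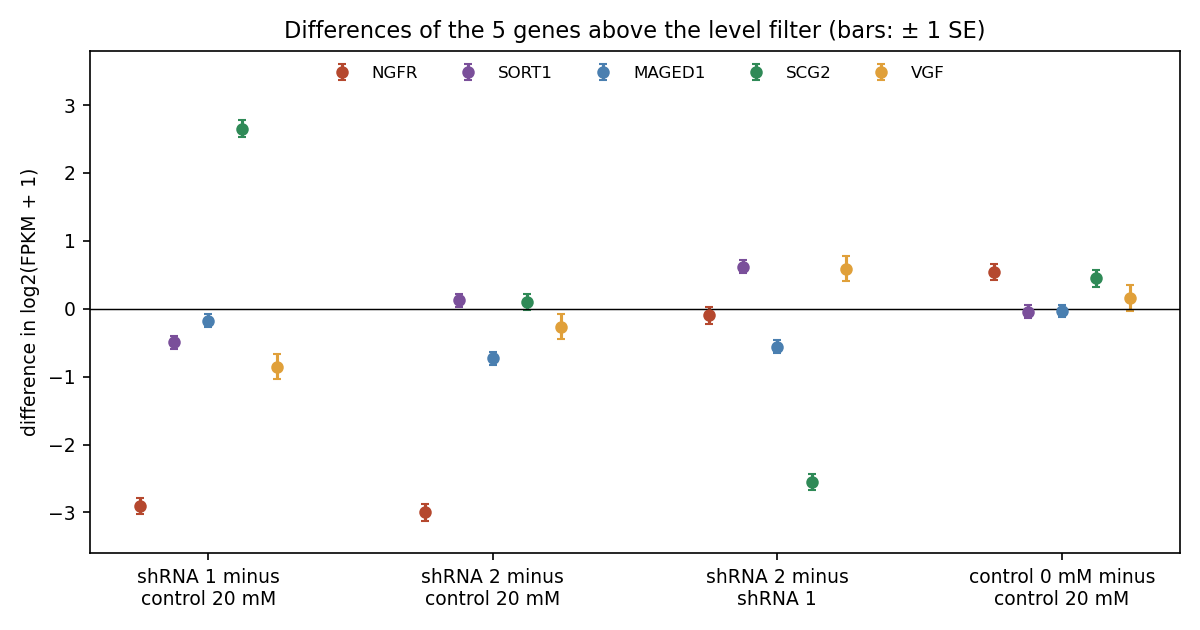
Differences of the 5 tested genes on the log2(FPKM + 1) scale (y axis) in 4 comparisons (x axis), with bars of 1 SE from the limma model. NGFR is at -2.90 and -3.00 with the MAPKAPK2 shRNAs and 0.54 at 0 mM glucose; SCG2 is at 2.65 with shRNA 1 and 0.10 with shRNA 2; SORT1 and MAGED1 lie on opposite sides of 0 in shRNA 2 minus shRNA 1.

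The genes with the pattern most like NGFR over the 8 libraries were AJUBA, SREBF2, PMAIP1, AMOTL2 and SLC2A1. They had the highest Pearson r of log2(FPKM + 1) with NGFR among 1299 protein-coding genes whose group means spanned at least 1 on that scale, from 0.993 to 0.997. The r is a description over 4 pairs of like libraries that share controls and depth, and carries no p. AJUBA codes for a LIM domain scaffold protein, SREBF2 for the transcription factor of sterol synthesis, PMAIP1 for the cell death protein NOXA, AMOTL2 for an angiomotin-like junction protein and SLC2A1 for the glucose transporter GLUT1. AMOTL2 was at 6.29 and 6.9 FPKM with shRNA 1, 7.33 and 7.52 FPKM with shRNA 2, 32.1 and 30.8 FPKM at 0 mM and 29.8 and 26.4 FPKM in the 20 mM control. SLC2A1 was at 61.3 and 55.9 FPKM with shRNA 1, 53.1 and 49.8 FPKM with shRNA 2, 156 and 158 FPKM at 0 mM and 128 and 124 FPKM in the 20 mM control. None of the 5 differed from the 20 mM control by as much as NGFR, which was chosen for its loss in these same comparisons. The differences of the 5 ran from -1.94 to -0.79 with shRNA 1 and from -1.79 to -0.79 with shRNA 2.

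The genes most like SCG2 were COL17A1, KRT13, TJP3, GSN and AVPR2, with r from 0.984 to 0.992. COL17A1 codes for a collagen of hemidesmosomes, KRT13 for a keratin of stratified epithelium, TJP3 for a tight junction protein, GSN for gelsolin, which severs actin filaments, and AVPR2 for the vasopressin receptor of the kidney. KRT13 was at 8.66 and 8.71 FPKM with shRNA 1, 1.23 and 0.746 FPKM with shRNA 2, 1.21 and 0.979 FPKM at 0 mM and 0.657 and 0.521 FPKM in the 20 mM control. GSN was at 24.7 and 20.8 FPKM with shRNA 1, 12.2 and 10.1 FPKM with shRNA 2, 11.5 and 11.2 FPKM at 0 mM and 9.72 and 9.95 FPKM in the 20 mM control. Each of the 5 was highest in the shRNA 1 libraries, which follows from their choice by likeness to SCG2. Their differences from the 20 mM control were 1.04 to 2.61 with shRNA 1 and -0.01 to 0.32 with shRNA 2. AVPR2 passed the level filter only through the shRNA 1 libraries.

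**Figure D3:**
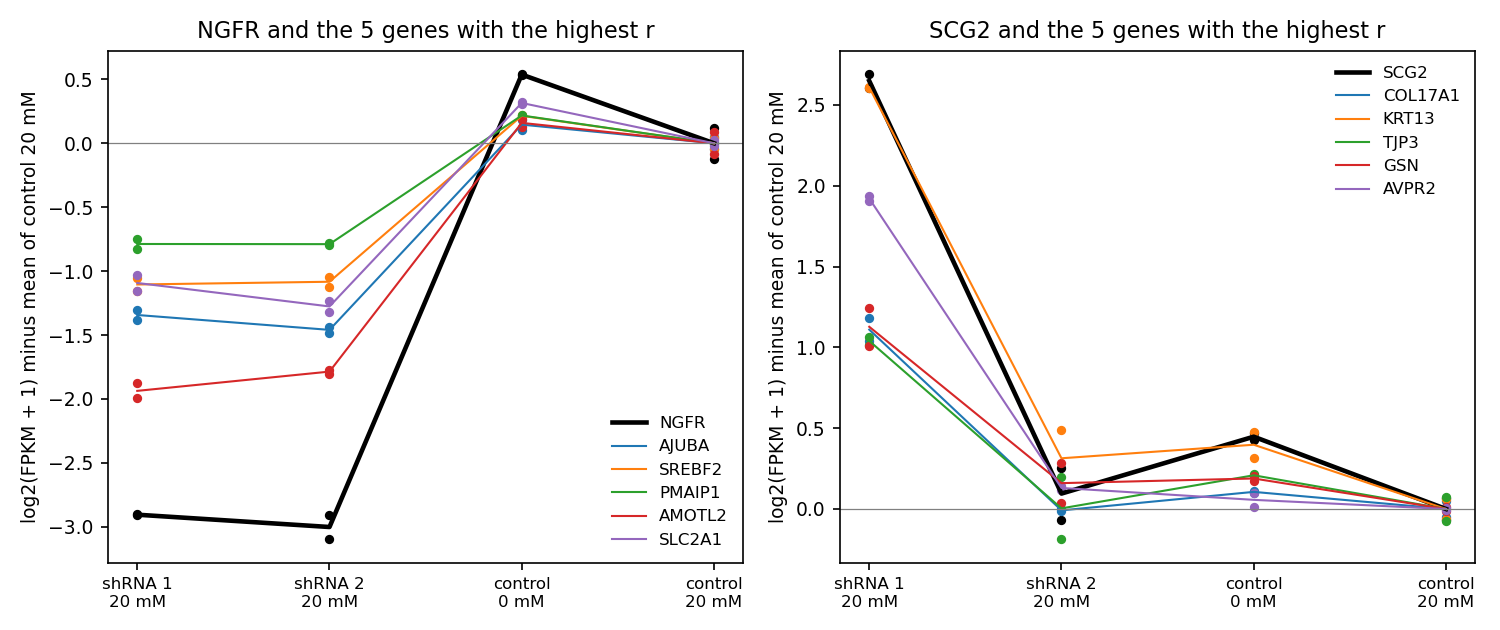
Log2(FPKM + 1) minus the mean of the 20 mM control (y axes) by group (x axes) for NGFR and SCG2 (black) and the 5 genes with the highest Pearson r to each; points are libraries and lines join the group means. The genes were chosen for this likeness, and NGFR for its low level with both shRNAs. NGFR lies below its 5 there, at -2.90 and -3.00 against -1.94 to -0.79.

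The surroundings of p75NTR were described with lists of the genes it works with. Each list count below is from the limma model. The median difference over all 16239 genes was -0.01 with shRNA 1, 0.01 with shRNA 2 and 0.03 between the shRNAs. Of all these genes 9.35% rose and 10.5% fell with shRNA 1, and 11.1% rose and 7.73% fell with shRNA 2. Between the shRNAs 13.0% were higher and 9.13% lower with shRNA 2. Of 138 calls among the list genes in the 3 shRNA comparisons, 35 held in all 8 fits that left out 1 library (8 of 45 with shRNA 1, 16 of 50 with shRNA 2, 11 of 43 between the shRNAs). The calls named below with their adjusted p held in all 8 unless another value is given. No list gene was called for glucose.

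Of 19 neurotrophin ligands, receptors and their adaptors, 10 were tested. The few that passed against the 20 mM control with the MAPKAPK2 shRNAs were lower, and nothing is read from their shared direction. With shRNA 1, 0 rose and 3 fell (SHC1, BDNF and RTN4R), with shRNA 2, 0 rose and 2 fell (BDNF and SORBS3), and the medians were -0.05 and 0.03. BDNF, the neurotrophin with the highest level, was at 8.57 and 8.1 FPKM with shRNA 1, 3.11 and 3.5 FPKM with shRNA 2, 13.4 and 15.1 FPKM at 0 mM and 12.5 and 13.7 FPKM in the 20 mM control. Its difference from the 20 mM control was -1.71 with shRNA 2 (SE 0.10, limma adjusted p = 2.67e-04) and -0.59 with shRNA 1 (adjusted p = 0.0103, up to 0.0762 without shRNA 1 replicate 1 or 2 or control 20 mM replicate 2). It was also lower with shRNA 2 than with shRNA 1, with a difference of -1.12 (adjusted p = 9.57e-04). SHC1, an adaptor of receptor tyrosine kinases, was at 23.3 and 24.7 FPKM with shRNA 1 and 53.5 and 43.9 FPKM with shRNA 2, against 48.0 and 46.6 FPKM in the 20 mM control, a difference of -0.95 with shRNA 1 (adjusted p = 0.00261) and 0.04 with shRNA 2 (adjusted p = 0.858), and one of 0.99 between the shRNAs (adjusted p = 0.00184). RTN4R was lost without any 1 of the 4 libraries compared (adjusted p up to 0.181) and SORBS3 without any 1 library except shRNA 2 replicate 1 (up to 0.183).

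SORCS1 and SORCS3, the genes of a pair of relatives of sortilin, had 0 reads in all 8 libraries. Of the neurotrophin receptor kinases, NTRK2 stayed at or under 0.00237 FPKM and NTRK3 at or under 0.00592 FPKM.

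Of 29 adaptors and cleavage enzymes of p75NTR, 26 were tested, and those that passed went both ways. With shRNA 1, 4 rose and 5 fell (median -0.08), with shRNA 2, 6 rose and 4 fell (median 0.20), and between the shRNAs 5 were higher and 1 lower with shRNA 2 (median 0.15). NCSTN, a subunit of the γ-secretase that cuts p75NTR within the membrane, was at 16.1 and 15.8 FPKM with shRNA 1 and 19.7 and 19.7 FPKM with shRNA 2, against 10.9 and 11.1 FPKM in the 20 mM control. The rise was 0.79 with shRNA 2 (adjusted p = 0.00139) and 0.50 with shRNA 1 (adjusted p = 0.00792, up to 0.0645 without any 1 of the 4 libraries compared). MAGED2, a relative of MAGED1, fell to 10.8 and 9.47 FPKM with shRNA 2, against 23.8 and 23.3 FPKM in the 20 mM control (-1.14, adjusted p = 0.0026). MYD88, an adaptor of Toll-like receptors, rose to 12.6 and 12.1 FPKM with shRNA 1, against 6.0 and 6.31 FPKM in the 20 mM control (0.90, adjusted p = 0.00288). Single libraries moved these counts by more than 1.5 times. With shRNA 1, 1 rose without any 1 of the 4 libraries compared, and the 5 that fell became 0 to 2 without them and 8 without either shRNA 2 library. With shRNA 2, 1 rose and 1 fell without either 20 mM control, and 2 fell without shRNA 2 replicate 2. Between the shRNAs the 5 became 1 without either shRNA 1 library, 2 without shRNA 2 replicate 2 and 3 without either 20 mM control.

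p75NTR belongs to the TNF receptor superfamily, and of its 26 other listed members 15 were tested. With shRNA 1, 4 rose and 0 fell (median 0.12), with shRNA 2, 5 rose and 3 fell (median -0.02), and between the shRNAs 1 was higher and 6 lower with shRNA 2 (median -0.11). TNFRSF1A, the main receptor of TNF, was at 36.8 and 31.9 FPKM with shRNA 1 and 31.9 and 31.4 FPKM with shRNA 2, against 18.6 and 19.6 FPKM in the 20 mM control (0.81, adjusted p = 0.00288, and 0.70, adjusted p = 0.00433). TNFRSF10D, a decoy receptor of TRAIL, was at 34.3 and 34.1 FPKM with shRNA 1, against 19.7 and 19.6 FPKM in the 20 mM control (0.77, adjusted p = 0.00203). With shRNA 1 the 4 became 2 without shRNA 1 replicate 1 or control 20 mM replicate 2. With shRNA 2 the 5 became 1 without control 20 mM replicate 1 and 3 without shRNA 2 replicate 1, and the 3 that fell became 0 without either 20 mM control and 1 without control 0 mM replicate 2. Between the shRNAs the 6 became 1 and 0 without shRNA 1 replicate 1 and 2, and 3 without shRNA 2 replicate 1.

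Other granins were all but absent. CHGB, SCG3 and PCSK1N stayed at or under 0.206 FPKM in every library, so of the granins listed SCG2 and VGF alone exceeded 1 FPKM in any library. Of 7 genes in the list of other granins and granin-like proteins 4 were tested, and NUCB2 rose with shRNA 1 (0.54, adjusted p = 0.0287, up to 0.157 without any 1 of the 4 libraries compared) and GNAS with shRNA 2 (0.47, adjusted p = 0.0271, up to 0.164 without shRNA 2 replicate 2 or any 1 control shRNA library). The values are per gene, so the transcripts of GNAS were not told apart. The enzymes that cut and trim granins in endocrine cells were partly missing too. PCSK1 and PCSK2, the convertases of dense-core granules, had at most 2 reads a library.

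Of 16 prohormone processing enzymes 12 were tested. With shRNA 1, 2 rose and 1 fell (median -0.04), and with shRNA 2, 3 rose and 0 fell (median 0.29). CPE, the carboxypeptidase that trims peptides after cleavage in granules, rose with each shRNA, to 16.0 and 17.0 FPKM with shRNA 1 and 15.5 and 15.2 FPKM with shRNA 2, against 8.39 and 9.14 FPKM in the 20 mM control (0.84, adjusted p = 0.00205, and 0.74, adjusted p = 0.00264). CPM, a carboxypeptidase of the cell surface, was at 0.902 and 0.833 FPKM with shRNA 1 and 8.36 and 8.51 FPKM with shRNA 2, against 0.746 and 1.04 FPKM in the 20 mM control. It rose with shRNA 2 (2.32, adjusted p = 2.7e-04) and did not pass with shRNA 1 (-0.01, adjusted p = 0.961). The difference between the shRNAs was 2.34 (adjusted p = 3.3e-04). The call of MBTPS1 with shRNA 1 (adjusted p = 0.0492) held only without either shRNA 2 library.

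Of 48 genes of dense-core granule formation and exocytosis 32 were tested. With shRNA 1, 9 rose and 3 fell, and with shRNA 2, 11 rose and 2 fell, with a median of 0.24 in each. Between the shRNAs 5 were higher and 4 lower with shRNA 2 (median -0.02). HID1, a Golgi protein needed to form the granules, was at 11.4 and 11.0 FPKM with shRNA 1 and 7.44 and 5.87 FPKM with shRNA 2, against 4.66 and 4.35 FPKM in the 20 mM control, and rose with shRNA 1 by 1.15 (adjusted p = 0.00185). STX1A, the membrane SNARE of regulated release, was at 10.2 and 9.56 FPKM with shRNA 1 and 14.6 and 11.6 FPKM with shRNA 2, against 4.35 and 4.97 FPKM in the 20 mM control. The rise was 1.31 with shRNA 2 (adjusted p = 0.00209) and 0.94 with shRNA 1 (adjusted p = 0.00749, up to 0.0599 without shRNA 1 replicate 1 or control 20 mM replicate 1). UNC13B, which primes vesicles for fusion, rose with shRNA 2 to 4.49 and 4.8 FPKM, against 2.24 and 2.31 FPKM in the 20 mM control (0.78, adjusted p = 0.0032).

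Members of that list also moved apart between the shRNAs. UNC13D, a priming factor best known in blood cells, was at 1.7 and 1.16 FPKM with shRNA 2, against 5.41 and 5.56 FPKM with shRNA 1 and 6.35 and 5.52 FPKM in the 20 mM control. The difference of shRNA 2 from the control was -1.52 (adjusted p = 7.4e-04) and that from shRNA 1 was -1.43 (adjusted p = 9.32e-04). RAB3B, a small GTPase of secretory vesicles, was at 13.1 and 16.8 FPKM with shRNA 2, against 4.63 and 5.38 FPKM with shRNA 1 and 8.43 and 7.52 FPKM in the 20 mM control, a difference between the shRNAs of 1.40 (adjusted p = 0.00119). The counts of this list depended on single libraries. With shRNA 1 the 9 became 1 and 3 without shRNA 1 replicate 1 and 2, and 2 and 3 without control 20 mM replicate 1 and 2. The 3 that fell with shRNA 1 became 0 without any 1 of these 4 libraries. With shRNA 2 the 11 became 7 and 5 without control 20 mM replicate 1 and 2, and the fall of SYT1 (adjusted p = 0.0404, up to 0.180) was lost without either shRNA 1 library, shRNA 2 replicate 1 or either 20 mM control. Between the shRNAs the 5 and 4 became 2 and 1 without either shRNA 1 library.

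**Figure D4:**
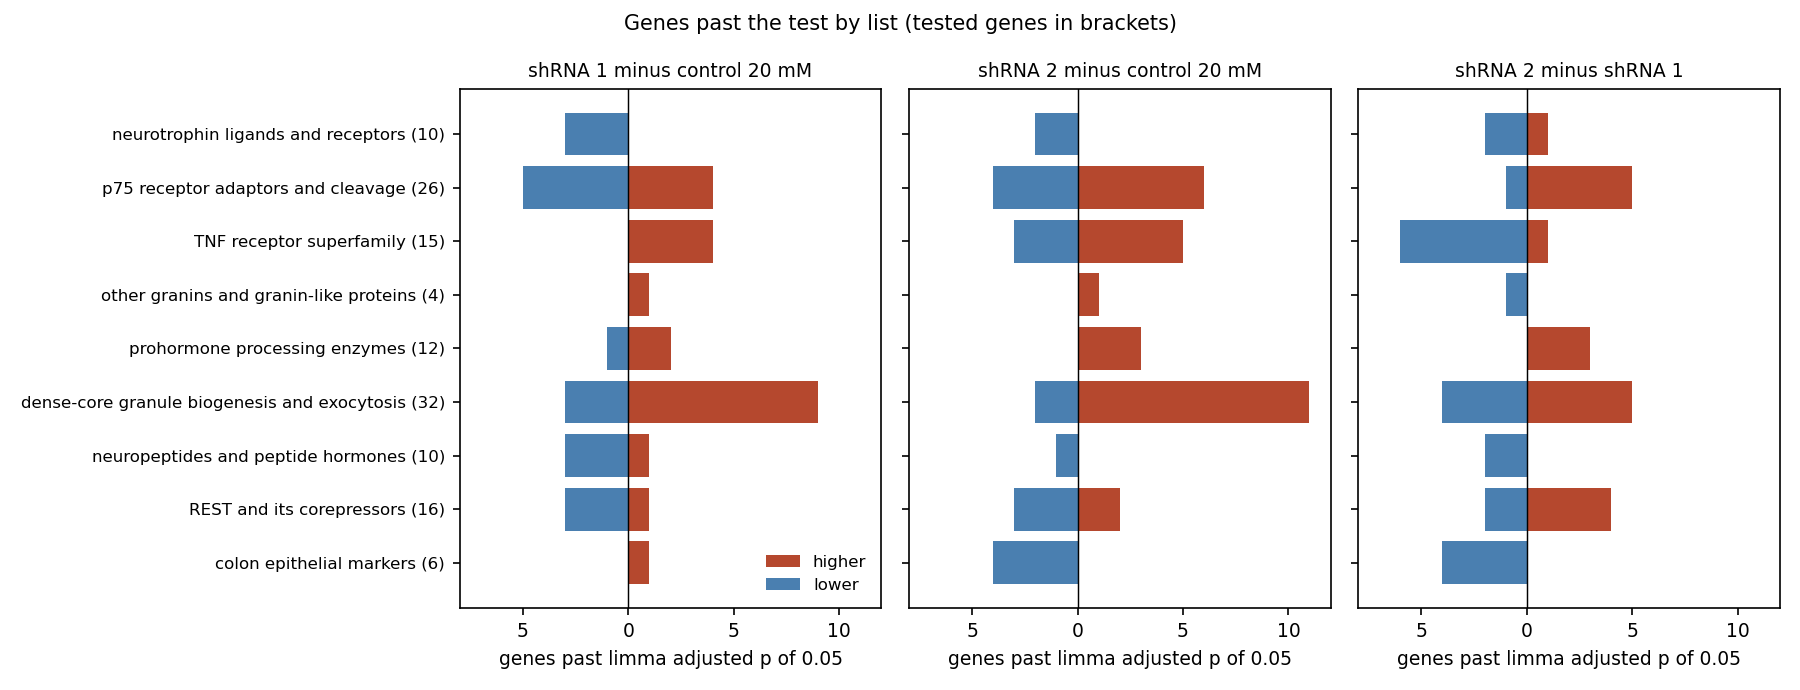
Genes past a limma adjusted p of 0.05 (x axes: higher to the right of 0, lower to the left) in 9 gene lists (rows, with the number tested) for 3 comparisons. The granule list has 9 higher and 3 lower with shRNA 1 and 11 higher and 2 lower with shRNA 2, the neurotrophin list has none higher against the control, and over all genes 19.8%, 18.8% and 22.2% passed.

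The peptides that such granules store were mostly not expressed. Of 37 neuropeptide and peptide hormone genes, 11 had 0 reads in every library, including POMC, SST, VIP and GCG, and 10 were tested. With shRNA 1, 1 rose (ADM2) and 3 fell (NMU, NMB and GAST), and with shRNA 2, 0 rose and 1 fell (NMU), with medians of -0.07 and -0.15. NMU, the gene of neuromedin U, was at 45.2 and 40.4 FPKM with shRNA 1 and 20.1 and 23.1 FPKM with shRNA 2, against 69.0 and 73.5 FPKM in the 20 mM control. The difference from the control was -0.72 with shRNA 1 (adjusted p = 0.00551, 0.0506 without control 20 mM replicate 2) and -1.68 with shRNA 2 (adjusted p = 2.7e-04), and between the shRNAs it was -0.95 (adjusted p = 0.00174). ADM2, the gene of a peptide of the calcitonin family, rose with shRNA 1 to 4.91 and 5.14 FPKM, against 1.87 and 1.41 FPKM in the 20 mM control (1.20, adjusted p = 0.00636). The 3 that fell with shRNA 1 became 1 without shRNA 1 replicate 2 or either 20 mM control, and the 1 with shRNA 2 became 3 without either 0 mM control.

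REST, the repressor that keeps neuronal genes off in other cells, was at 7.34 and 7.61 FPKM with shRNA 1, 7.73 and 10.9 FPKM with shRNA 2, 8.18 and 11.4 FPKM at 0 mM and 10.6 and 9.75 FPKM in the 20 mM control. Its difference from the 20 mM control did not pass with shRNA 1 (-0.40, SE 0.19, adjusted p = 0.187) or shRNA 2 (-0.13, adjusted p = 0.677). Of 17 genes in the list of REST and its corepressors 16 were tested, of which 1 rose and 3 fell with shRNA 1 and 2 rose and 3 fell with shRNA 2 (median -0.02 and -0.003). Without any 1 of the 4 libraries compared 0 fell with shRNA 1, and with shRNA 2, 1 rose without any 1 shRNA 1 or control shRNA library and 1 fell without either 20 mM control. BTRC, part of the ubiquitin ligase that marks REST for breakdown, rose with shRNA 2 to 11.4 and 11.9 FPKM, against 5.34 and 4.88 FPKM in the 20 mM control (1.05, adjusted p = 7.34e-04). CTDSP2, a phosphatase of the REST complex, fell with shRNA 2 to 12.9 and 12.4 FPKM, against 23.9 and 21.6 FPKM in the 20 mM control (-0.79, adjusted p = 0.00188).

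Few markers of other cell types were high enough to be tested. Of the 27 neuroendocrine and neuronal markers only ENO2, TUBB3 and L1CAM were tested. ENO2, neuron-specific enolase, was at 6.22 and 6.55 FPKM with shRNA 1 and 26.0 and 20.6 FPKM with shRNA 2, against 9.55 and 11.1 FPKM in the 20 mM control. It rose with shRNA 2 (1.09, adjusted p = 0.00269), fell with shRNA 1 (-0.62, adjusted p = 0.0204, up to 0.121 without any 1 of the 4 libraries compared) and differed by 1.71 between the shRNAs (adjusted p = 5.87e-04). L1CAM rose with shRNA 1 (0.48, adjusted p = 0.0246, up to 0.142 without any 1 of the 4 libraries compared). TUBB3, which shares 35.8% of its exon bases with another gene, rose with shRNA 2 (0.51, adjusted p = 0.0312, up to 0.155) in a call that held in 1 of the 8 fits. The summed level of these 27 genes was 15.7 to 16.1 FPKM with shRNA 1 and 28.1 to 34.3 FPKM with shRNA 2. It was 16.2 to 18.2 FPKM in the 20 mM control. Of this sum, ENO2 alone gave 26.0 and 20.6 FPKM with shRNA 2 and 9.55 and 11.1 FPKM in the 20 mM control. The higher sum with shRNA 2 thus came mostly from ENO2 and does not describe the markers as a set. Of 8 Schwann cell and glial markers, a cell type in which NGFR is best known, 3 were tested. MBP rose with shRNA 1 (0.43, adjusted p = 0.0326, up to 0.160 without any 1 of the 4 libraries compared) and none passed with shRNA 2. The summed level of all 8 was 8.71 to 8.98 FPKM with shRNA 1 and 9.69 to 10.6 FPKM with shRNA 2, against 8.34 to 8.48 FPKM in the 20 mM control. S100B had 0 reads in 7 of the 8 libraries.

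Of the colon epithelial markers, CDH1, EPCAM, KRT18 and KRT8 passed as lower with shRNA 2 than with shRNA 1. The calls of KRT18 (-0.49, adjusted p = 0.0282) and KRT8 (-0.53, adjusted p = 0.0363) each held in only 1 of the 8 fits that left out 1 library. CDH1 was at 27.2 and 27.5 FPKM with shRNA 1 and 9.62 and 10.8 FPKM with shRNA 2, against 15.1 and 13.5 FPKM in the 20 mM control. It rose with shRNA 1 (0.89, adjusted p = 0.0029), with a difference between the shRNAs of -1.34 (adjusted p = 6.52e-04). EPCAM was at 139 and 131 FPKM with shRNA 1 and 70.0 and 68.2 FPKM with shRNA 2, against 108 and 116 FPKM in the 20 mM control. It fell with shRNA 2 (-0.69, adjusted p = 0.00316). Of 6 tested markers, 1 rose with shRNA 1, and 4 fell with shRNA 2, of which 1 remained without either 20 mM control. Of 14 markers of fibroblasts, endothelium and blood cells, DCN and LUM had 0 reads and only COL1A1 was tested; it was at 3.84 and 4.03 FPKM with shRNA 1 and 4.58 and 4.09 FPKM with shRNA 2, against 6.72 and 6.28 FPKM in the 20 mM control, and fell with each (adjusted p = 0.00893 and 0.0171, up to 0.0696 and 0.113 without 1 of the libraries compared). The summed level of the 14 was 4.24 to 4.64 FPKM with shRNA 1 and 4.65 to 5.11 FPKM with shRNA 2, against 7.0 to 7.9 FPKM in the 20 mM control, and that of the 10 colon epithelial markers 1380 to 1578 FPKM with shRNA 1 and 1219 to 1554 FPKM with shRNA 2, against 1512 to 1548 FPKM in the 20 mM control. The part of these shifts in the levels of NGFR, SCG2 and the other genes was not tested.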

How the data were processed

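Total RNA of HCT116 cells was sequenced at a commercial facility after random priming; per the labels' protocols, second strands were made in a way that may or may not have kept strand. The submitters' processing notes name DESeq2 1.20.0, featureCounts 1.5.0-p3 and HISAT2 2.0.5 without roles. The deposited values are FPKM made by the authors, over 58735 genes that all match GENCODE 29 on GRCh38. Multiplied by exon length 100% of them were whole multiples of a library's smallest step (tolerance 0.001 steps), which gave back reads per gene, with sums 0.932 to 1.05 times the authors' library size.

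One limma 3.58.1 model (R 4.3.3, intensity trend, 4 group means, 4 residual degrees of freedom) was fitted to log2(FPKM + 1) of the 16239 genes with at least 1 FPKM in at least 2 libraries, with Benjamini-Hochberg adjustment over all of them. limma's voom on these reads called 4133 genes with shRNA 1, 3937 with shRNA 2, 4604 between the shRNAs and 28 for glucose. Pseudocounts of 0.1 and 5, no filter, quantile scaling, a replicate block and leaving out each library were the other alternatives. The fits were tested on simulated data.

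The 7 genes and the 12 lists (258 entries) were chosen with earlier results of these data known. Named genes are the 7, MAPKAPK2, REST, genes that overlap their exons, up to 4 called genes per list and comparison by smallest p, and the 5 most alike to NGFR and to SCG2. Of named list genes, TUBB3 (35.8%) and VIL1 (44.0%) have over 20% of their exon bases in another gene, as does AC015656.1 (25.8%, in NGFR). Replicate numbers were not used as pairs. A few items are not reported here.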

Additional observations from a re-analysis of the deposited data

Results flagged for a closer look

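SORT1 and MAGED1 differed between the MAPKAPK2 shRNAs, by the test of the difference itself. This contrast uses the shRNA libraries by which the set was chosen, and 22.2% of all genes tested passed in it. Neither call held in every fit that left out 1 library. SORT1 averaged 5.67 ± 0.00229 FPKM with shRNA 2 and 3.35 ± 0.274 FPKM with shRNA 1 (SD, n = 2 each). The difference was 0.62 on the log2(FPKM + 1) scale (limma adjusted p = 0.00633). Both shRNA 2 libraries were above both shRNA 1 libraries, as were those of 32.0% of all genes tested. MAGED1 averaged 11.3 ± 0.545 FPKM with shRNA 2 and 17.1 ± 0.031 FPKM with shRNA 1 (SD, n = 2 each). Its difference was -0.56 (limma adjusted p = 0.00806). Both of its shRNA 2 libraries were under both shRNA 1 libraries, as were those of 27.9% of all genes tested. MAPKAPK2 itself stood at 0.891 ± 0.129 FPKM with shRNA 2 and 2.66 ± 0.164 FPKM with shRNA 1, and its part in these differences was not tested.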

How the results depend on the processing

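Leaving out a library gave counts of genes called of 985 to 4070 for shRNA 1 (3222 in the full fit), 1021 to 3045 for shRNA 2 (3055), 1376 to 3496 between the shRNAs (3602), 306 to 1336 in the same direction with both shRNAs (1150) and 0 to 1 for glucose (0). Without the level filter, 751 genes passed with both shRNAs. For glucose, voom called 28, no filter 6 and a pseudocount of 5 called 1. The causes were not tested. NGFR kept its direction in each alternative with both shRNAs. It was chosen for its loss with both in these same libraries, so the kept direction is no support for the loss. Under voom, a pseudocount of 0.1 and a pseudocount of 5 its difference was -4.29, -4.08 and -1.48 with shRNA 1. With shRNA 2 it was -4.64, -4.34 and -1.51. SCG2, chosen for its level with shRNA 1, had differences there of 2.78, 2.77 and 2.23 under the same settings. The size of a log2 difference at levels as low as that of NGFR thus depends on the pseudocount. Leaving out 1 library reversed 5 small differences. Those of SORT1 and MAGED1 under glucose had been tested and did not pass. Over the fits that left out 1 library, SORT1 ranged from -0.108 to 0.0195 (reversed without control 20 mM replicate 1). MAGED1 ranged from -0.128 to 0.0609 (without control 0 mM replicate 1). The other reversed differences were given with no test. NGFR between the shRNAs ranged from -0.194 to 0.0014 (without shRNA 2 replicate 1). With shRNA 2, SCG2 ranged from -0.0645 to 0.261 (without shRNA 2 replicate 1) and VGF from -0.571 to 0.0447 (without shRNA 2 replicate 2).

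Same-numbered libraries of different groups deviated together with r between -0.03 and 0.18, and only shRNA 2 with the 0 mM control exceeded 0.1. The numbers were therefore not used as pairs. Such an r cannot show that no libraries were handled together, which was not tested. With the replicate block, 3470 genes passed with shRNA 1, 3332 with shRNA 2, 3806 between the shRNAs and 0 for glucose, and VGF passed between the shRNAs (adjusted p = 0.0385).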
